A study of Mus musculus with 4 samples.

Results

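Integrin subunits were followed in osteoclast cultures with and without NFATc1, the transcription factor that drives osteoclast formation downstream of RANK. The subunits were 10 genes chosen by name, with earlier results of these data known. They were the beta subunits Itgb3, Itgb1, Itgb2 and Itgb5, and the alpha subunits Itgav, Itgam, Itgal, Itga4, Itga5 and Itga2b. They were represented by 23 of the 22690 probe sets on the arrays, a probe set being a group of short probes read out as 1 signal, and every probe set with 1 of these symbols was taken. Expression was measured on 4 Affymetrix arrays, 2 of wild-type cultures (NFATc1 fl/fl MxCre-) and 2 of NFATc1-deficient cultures (NFATc1 fl/fl MxCre+), all from C57BL/6 mice. Both genotypes thus carried the floxed allele. In the deficient mice the excision was induced with poly I:C through the Mx-Cre transgene, a recombinase under an interferon-inducible promoter that acts in many tissues. The sources used here give neither the age of the mice nor whether poly I:C was injected into the controls. Precursors were sorted from marrow as c-Kit+ c-Fms+ cells lacking CD11b, CD3e and B220, plated at 20000 per well and grown for 3 days in M-CSF and RANKL. RNA came from pooled mice, 3 per genotype in replicate 1 and 4 in replicate 2. The spread between arrays of 1 genotype is thus that between pools, which also differed in sex by Xist and Eif2s3y.

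Integrins are transmembrane receptors made of 1 alpha and 1 beta chain that tie the cytoskeleton to matrix or to other cells. The beta 3 chain pairs with alpha V to form the vitronectin receptor, which binds the arginine-glycine-aspartate motif of osteopontin, vitronectin and bone sialoprotein and organises the actin ring of resorbing osteoclasts. Osteoclast precursors carry alpha V with beta 5, and leukocytes of most kinds carry beta 2 with alpha M (CD11b) or alpha L. Beta 1 pairs with alpha 4 and alpha 5 to bind fibronectin and VCAM-1, and alpha IIb pairs with beta 3 on platelets and megakaryocytes.

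Promoter sequences were drawn from RefSeq (GRCm38.p6) to show what stands upstream of the subunits. Entries were found for 7 of the 10 subunits: Itgav, Itgb1, Itgb5, Itgam, Itga4, Itga5 and Itga2b. The windows run from 250 bases before the start of transcription to 50 after it. They were searched on both strands for GGAAA, the core that NFAT proteins bind, which reads TTTCC on the other strand. The windows shown are those of Itgav and Itgb1, whose brightest probe sets fell, and of Itgam, which did not pass the test. All are on the plus strand and run 5′ to 3′, with GGAAA or TTTCC in capitals. They lie at chr2:83724147-83724446, chr8:128685404-128685703 and chr7:128062390-128062689.
Itgav: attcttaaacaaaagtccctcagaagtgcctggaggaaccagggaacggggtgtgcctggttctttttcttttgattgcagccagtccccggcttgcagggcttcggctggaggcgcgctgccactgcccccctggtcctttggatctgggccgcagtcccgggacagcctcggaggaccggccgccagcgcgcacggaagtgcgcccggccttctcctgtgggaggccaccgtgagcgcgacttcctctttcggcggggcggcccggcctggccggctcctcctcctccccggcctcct
Itgb1: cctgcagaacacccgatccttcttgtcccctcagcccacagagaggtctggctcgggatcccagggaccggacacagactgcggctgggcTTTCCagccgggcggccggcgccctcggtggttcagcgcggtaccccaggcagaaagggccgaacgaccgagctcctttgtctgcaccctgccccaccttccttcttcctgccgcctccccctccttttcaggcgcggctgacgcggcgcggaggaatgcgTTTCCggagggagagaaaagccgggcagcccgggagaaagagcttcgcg
Itgam: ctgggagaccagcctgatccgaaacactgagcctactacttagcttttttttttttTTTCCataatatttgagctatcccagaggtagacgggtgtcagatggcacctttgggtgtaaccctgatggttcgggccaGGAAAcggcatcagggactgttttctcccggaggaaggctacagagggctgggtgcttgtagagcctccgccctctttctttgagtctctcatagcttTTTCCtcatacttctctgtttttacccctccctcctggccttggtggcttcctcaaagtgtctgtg

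The Itgav window held 0 matches, that of Itgb1 held 2 and that of Itgam held 3. Itgb5 and Itga4 also had 0, Itga2b had 2 and Itga5 had 6. A match was thus present in 4 of 7 windows, and in 61.3% of all 32851 windows of this length. The matches describe these letters in these windows and are not evidence of binding.

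Nfatc1 itself gave signal in the deficient cultures. Its brighter probe set read 5433.6 and 6146.7 on the wild-type arrays and 3018.2 and 4097.9 on the deficient arrays, a log2 change of -0.71 (SE 0.15, adjusted p = 0.0102). Changes are NFATc1-deficient minus wild-type on the log2(signal + 23.3) scale, where 23.3 is the 25th percentile of all signals. Adjusted p-values come from limma over all 13575 probe sets tested, at a threshold of 0.05. It was not called when NFATc1-deficient replicate 1 was left out (adjusted p = 0.0882) or without the variance trend of the fit (0.0599), and whether its probes lie in the excised exons was not analysed here. The other Nfatc1 probe set read 2680.7 and 2860.4 against 1718 and 2078.6, which left 68.5% of the wild-type mean (change -0.55, adjusted p = 0.0126). That call was lost with median scaling (adjusted p = 0.0533) and without the variance trend (0.0665). Markers of the labelled cell type were bright: the protease cathepsin K (Ctsk) had wild-type signals of 12136.7 and 14170.1, and tartrate-resistant acid phosphatase (Acp5) of 10632.9 and 12885.8.

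Of the 10 subunits, 3 fell in the deficient cultures, 0 rose and 7 did not pass. Those that fell were Itgb3, Itgav and Itgb1, each judged by its brightest probe set. Over all 7799 genes tested, 11.9% were lower and 12.8% higher by the same rule. Of the 19 integrin probe sets that passed the filter on low signal, 4 fell and 0 rose (6 had an unadjusted p under 0.05), against 11.4% lower and 12.8% higher over all probe sets. The remaining 4 probe sets, 3 of Itgb1 and 1 of Itga4, had signals from 0.6 to 28 and were not tested. The median change of the 10 subunits was -0.05, beside 0.03 over all genes tested, and the falls lay in single subunits. The count of lower subunits was 1 (Itgb3) without NFATc1-deficient replicate 1, and that of higher subunits was 1 (Itga2b) without wild-type replicate 1.

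**Figure D1:**
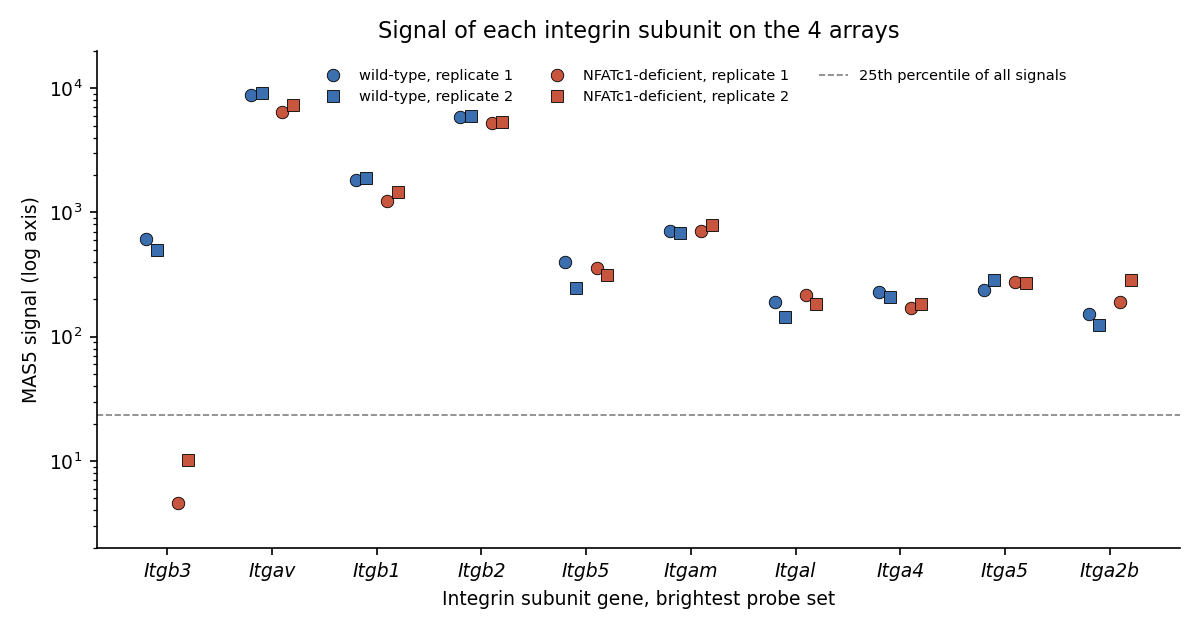
MAS5 signal (log axis) of the brightest probe set of each integrin subunit on the 4 arrays, 2 wild-type (blue) and 2 NFATc1-deficient (red), with circles for replicate 1 and squares for replicate 2. Itgb3 alone drops below the dashed line at 23.3, the 25th percentile of all signals, with deficient signals of 4.6 and 10.2.

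Among the beta chains, beta 3 was nearly lost. The Itgb3 probe set read 610.6 and 495.1 on the wild-type arrays and 4.6 and 10.2 on the deficient arrays. The groups were far apart, and both deficient signals lay in the lowest part of their arrays, at percentiles 9.34 and 14.6 of all probe sets, against 76.7 and 73.8 in wild-type cultures. The deficient mean, 7.4 ± 3.96 (SD, n = 2), was 1.34% of the wild-type mean of 553 ± 81.7 (SD, n = 2). The log2 change was -4.23 (SE 0.25, adjusted p = 6.38e-05), with -4.51 for replicate 1 and -3.95 for replicate 2. Since the deficient signals lie under the pseudocount, the size of the fall rests on it: with a pseudocount of 1 the change was -6.12, and with 100 it was -2.60. The probe set passed the filter through its wild-type signals.

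By log2 change Itgb3 was number 6 from the lowest of the 13575 probe sets tested, an order that rests on the pseudocount. Of 5720 probe sets with at least 495.1 on both wild-type arrays, the lower of the Itgb3 wild-type signals, 1 was under 23.3 on both deficient arrays, and it was that of Itgb3. This count was set from the Itgb3 values and is a description. By the distance between profiles over the 4 arrays, after the wild-type mean of each was subtracted, the nearest other probe sets were those of Calcr (0.57 log2 units), F2r (0.59), the steroid dehydrogenase Akr1c18 (0.70), the lipid phosphatase Plpp1 (0.82) and Oscar (0.85). These distances rest on the pseudocount too and were not computed with another. Calcr encodes the calcitonin receptor of osteoclasts, F2r the thrombin receptor and Oscar an osteoclast immune receptor. Calcr, the nearest, read 761.2 and 717.5 on the wild-type arrays and 17 and 41.6 on the deficient arrays.

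Osteoclast markers fell along with Itgb3. Of 11 listed markers 8 were measured and tested, and all 8 fell, where 11.9% of all genes did (median change -1.10). The list was chosen with earlier results of these data known, so this count is a description. Their summed signal was 48740 and 55010 in wild-type and 22010 and 29760 in deficient cultures. In these bulk cultures fewer osteoclasts and less RNA per osteoclast cannot be told apart. The signal kept in the deficient cultures differed between these markers, from 3.96% for Calcr and 4.25% for Oscar to 40.8% for Acp5, 52.8% for Ctsk and 59.7% for Mmp9. Of 10 tested macrophage and monocyte markers, 2 fell and 1 rose (median change 0.06), where 11.9% and 12.8% of all genes did. With 10 genes these counts are near those shares, and they changed when single arrays were left out. What these marker shifts contribute to the Itgb3 value was not tested.

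The other beta chains kept most of their signal. Beta 2, the chain shared by the leukocyte integrins, read 5897 and 5942 in wild-type and 5229.4 and 5295.4 in deficient cultures. The groups did not overlap, the deficient mean was 88.9% of the wild-type mean, and the change of -0.17 (95% interval -0.39 to 0.06, adjusted p = 0.261) did not pass. Both deficient arrays lay below both wild-type arrays in 8 of the 19 integrin probe sets and above them in 2, where 28.7% and 34.4% of all tested probe sets did so.

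Beta 1, the common partner of the fibronectin-binding alpha chains, was lower by its brightest probe set only. That probe set (1452545_a_at) read 1809.7 and 1892.3 in wild-type and 1225.6 and 1468.5 in deficient cultures, a change of -0.46 (SE 0.12, adjusted p = 0.0258). The next brightest (1426918_at) read 1099.4 and 1236.9 against 1010.5 and 1193.6. Its groups overlapped, and its change of -0.08 (95% interval -0.38 to 0.21, adjusted p = 0.685) did not pass. A dimmer one (1427771_x_at) read 203 and 176.7 against 117.6 and 225, a change of -0.19 (adjusted p = 0.682). The suffix x marks probes that can bind other transcripts, and the suffix a marks probes shared by transcripts of 1 gene. The call at the brightest probe set was lost in 5 of 12 alternatives, among them those without wild-type replicate 2 (adjusted p = 0.0609) and without NFATc1-deficient replicate 1 (0.164), over a range of 0.0075 to 0.164.

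Beta 5, the partner of alpha V on precursors, did not pass at any of its 4 probe sets. The brightest (1456133_x_at) read 400.2 and 246.6 in wild-type and 355.9 and 315.2 in deficient cultures, so that the deficient arrays lay inside the wild-type range. Its change was 0.08 (95% interval -0.42 to 0.59, adjusted p = 0.826). Of the others, 1417533_a_at (-0.13) and 1417534_at (-0.36) changed sign when NFATc1-deficient replicate 2 was left out (0.02 and 0.13). The last (1456195_x_at) read 56.3 and 43.4 against 88.2 and 63, with both deficient arrays above both wild-type arrays. Its change of 0.43 (adjusted p = 0.334) did not pass, and it stayed positive in all 11 alternatives that tested it (0.23 to 0.61). The 95% intervals of the dimmer probe sets, in the order named, were -0.61 to 0.35, -1.16 to 0.45 and -0.24 to 1.09. A change of -0.38, that of the brightest alpha V probe set, lay inside every Itgb5 interval but that of 1456195_x_at. The changes of the other alpha V probe sets, -0.73 and -0.76, lay inside that of 1417534_at only.

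**Figure D2:**
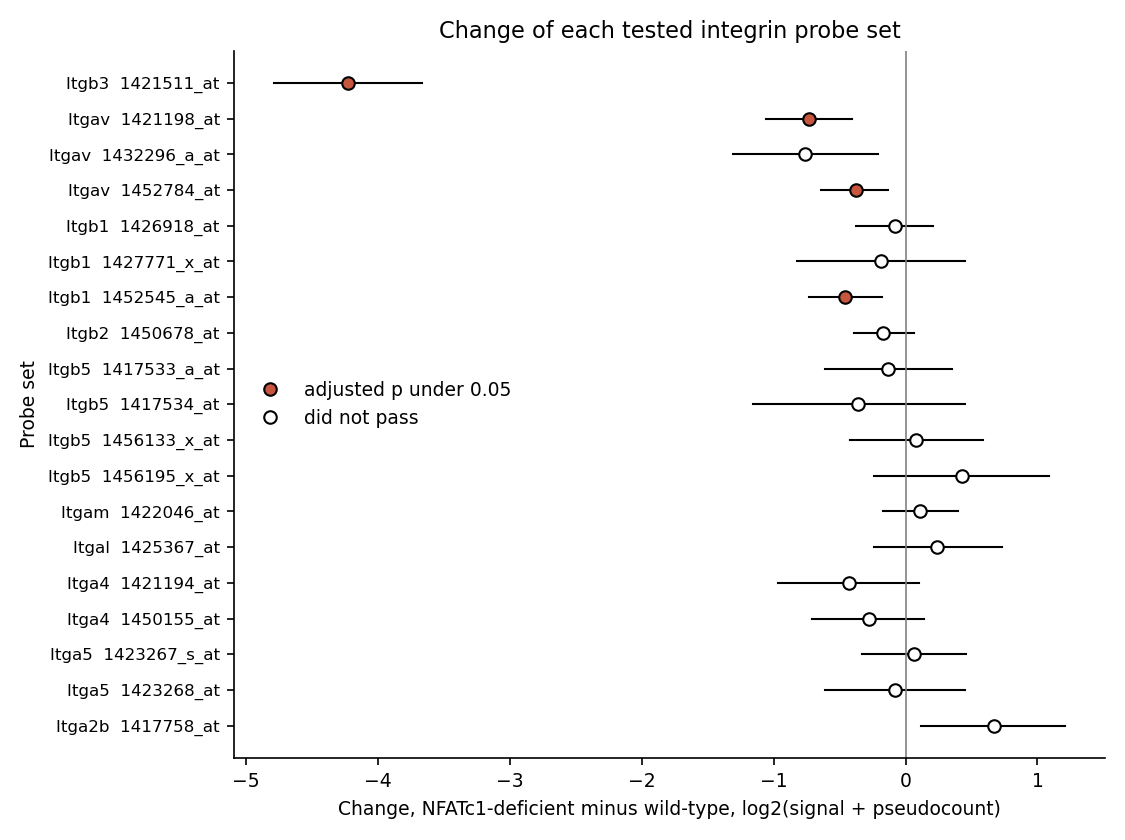
Change of each of the 19 tested integrin probe sets (points) with its 95% interval from the limma fit (bars), NFATc1-deficient minus wild-type on the log2(signal + 23.3) scale. Itgb3 stands at -4.23, while the other 18 lie between -0.76 and 0.67 and filled points mark the 4 that passed.

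Alpha V, the chain that pairs with both beta 3 and beta 5, fell moderately. Its brightest probe set (1452784_at) read 8739.3 and 9173 in wild-type and 6382.1 and 7358.6 in deficient cultures, which left 76.7% of the wild-type mean (change -0.38, SE 0.11, adjusted p = 0.0386). A second one (1421198_at) read 1669.9 and 1999.5 against 977.7 and 1218, or 59.8% (change -0.73, SE 0.14, adjusted p = 0.00726). The dimmest (1432296_a_at) read 307.8 and 281.8 against 124.9 and 213.8 and did not pass (change -0.76, adjusted p = 0.0509). All 3 probe sets thus had both deficient arrays below both wild-type arrays, as did 28.7% of all tested probe sets. They read the same RNA pools, and they differed in the size of the change.

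The call at 1421198_at held in all 12 alternatives, with an adjusted p of at most 0.0475. That at the brightest probe set was lost in 5, among them those without NFATc1-deficient replicate 1 (adjusted p = 0.405) and without NFATc1-deficient replicate 2 (0.101), over a range of 0.00952 to 0.405.

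The alpha chains of the leukocyte integrins did not pass. Alpha M is CD11b, the marker whose absence defined the sorted precursors, and after the 3 days of culture its gene Itgam gave clear signal in both genotypes. It read 713.9 and 678.1 in wild-type and 713.1 and 799.6 in deficient cultures. Each array placed it at percentile 79 or above, the groups overlapped, and the change was 0.11 (95% interval -0.17 to 0.40, adjusted p = 0.562). Itgal, the alpha L chain, read 189.5 and 144 against 215.7 and 184.8, a change of 0.24 (95% interval -0.24 to 0.73, adjusted p = 0.460). Granulocytes carry both chains, and of 11 tested granulocyte markers 3 rose (S100a8, S100a9 and Ngp) and 0 fell, where 12.8% and 11.9% of all genes did. Their summed signal was 6500 and 6814 in wild-type and 17330 and 8248 in deficient cultures, the higher of these in replicate 1. When single arrays were left out the count that rose was 1 without NFATc1-deficient replicate 1 (S100a8), 9 without NFATc1-deficient replicate 2, 5 without wild-type replicate 1 and 6 without wild-type replicate 2. Without NFATc1-deficient replicate 1, 1 of these markers fell (Csf3r). Whether this bears on the Itgam or Itgal values was not tested.

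The alpha partners of beta 1 also did not pass. Itga4, which with beta 1 binds VCAM-1, read 230.3 and 210.2 in wild-type and 169.7 and 183.4 in deficient cultures at its brightest probe set, a change of -0.28 (95% interval -0.71 to 0.14, adjusted p = 0.318). Another read 247 and 185.6 against 127.4 and 182.4 (change -0.43, adjusted p = 0.226). Both had the deficient arrays below the wild-type arrays, as did 28.7% of all tested probe sets. Itga5, the fibronectin receptor chain, read 238.3 and 283.5 against 274 and 271.3 (change 0.06, 95% interval -0.33 to 0.46, adjusted p = 0.832). Its other probe set had a change of -0.08 (adjusted p = 0.845).

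Alpha IIb, the other known partner of beta 3, had the highest positive change among the subunits. Itga2b read 153.1 and 124.2 in wild-type and 188.7 and 286.3 in deficient cultures. Both deficient arrays lay above both wild-type arrays, and the change of 0.67 (95% interval 0.12 to 1.21, unadjusted p = 0.0219, adjusted p = 0.0764) did not pass. Itga2b passed with median scaling (adjusted p = 0.017), where its change of 0.68 was nearly the same. When single arrays were left out its change ran from 0.39 to 0.94. Of 8 tested genes of the megakaryocyte and platelet list, the transcription factor Gfi1b rose (1.23) and the tetraspanin Cd9, which many cells express, fell (-0.67), where 12.8% of all genes rose and 11.9% fell. Gfi1b did not pass without NFATc1-deficient replicate 1, and 2 genes of the list rose without wild-type replicate 1. The summed signal of the 13 measured genes was 5016 and 5287 in wild-type and 3866 and 3422 in deficient cultures, and without Cd9 it was 1154 and 803 against 1156 and 927.9. Platelet factor 4 (Pf4) read 374.2 and 288.5 in wild-type and 353.3 and 219.1 in deficient cultures (-0.22, adjusted p = 0.548). Gp5 and Treml1 reached 138.2, and Gp9 and Vwf 69.7 and 80. Selp read 63.3 and 20.5 against 99.3 and 96 and did not pass (0.97, adjusted p = 0.0823). Changes were also positive for Gp1bb (0.09) and for the untested Ppbp (0.22), Clec1b (0.24) and Rab27b (0.08). They were negative for Gp5 (-0.17), Treml1 (-0.21) and Nfe2 (-0.05), and for the untested Gp9 (-0.60) and Vwf (-0.62). The part of such cells in the Itga2b value was not tested.

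The changes of the subunits were then set against each other within each array. This removes the array's scaling factor for signals well above the pseudocount. It does not do so for the deficient Itgb3 signals, which lie under the pseudocount. The Itgb3 value minus the Itgb1 value (log2 scale, brightest probe sets) was -1.53 and -1.89 on the wild-type arrays and -5.48 on each deficient array, so Itgb3 changed by -3.77 (SE 0.18) relative to Itgb1. Relative to Itgb2 it changed by -4.06 (SE 0.19), and relative to Itgb5 by -4.31 (SE 0.28). Relative to its partner Itgav, Itgb3 changed by -3.84 (SE 0.18). Each of these differences was many times the spread between arrays of 1 genotype, and the genotypes did not overlap.

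**Figure D3:**
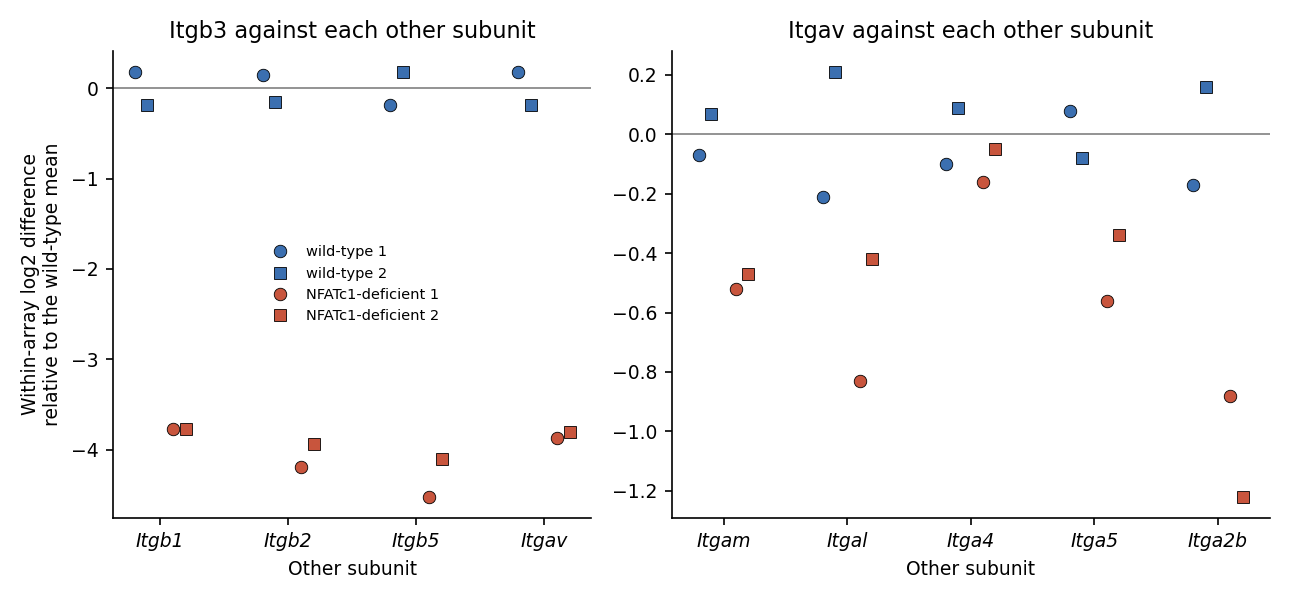
Log2 difference between 2 subunits on the same array, minus the wild-type mean of that difference (vertical axis), for Itgb3 against 4 subunits on the left and Itgav against 5 on the right, with 2 wild-type (blue) and 2 NFATc1-deficient (red) arrays. Itgb3 drops by 3.77 to 4.31 against each subunit shown, whereas Itgav drops by at most 1.05 and overlaps only for Itga4.

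Itgav changed by -0.54 (SE 0.10) relative to the mean of the other 5 alpha chains. The change was -0.50 (SE 0.07) relative to Itgam, -0.63 (SE 0.29) to Itgal, -0.45 (SE 0.14) to Itga5 and -1.05 (SE 0.24) to Itga2b, with no overlap between genotypes. Relative to Itga4 it was -0.10 (SE 0.11), and the genotypes overlapped. With 2 arrays a group the exact permutation test (two-sided) cannot give less than p = 0.333. It gave that value for 9 of the 10 differences and 0.667 for Itgav against Itga4, and after adjustment over the 10 it gave 0.37 and 0.667.

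The remaining integrin genes were mostly dim. Of the 16 subunits listed, 11 were measured and 4 were tested. Itga6, the laminin receptor chain, read 836 and 929.4 in wild-type and 663 and 645.5 in deficient cultures and fell (-0.42, SE 0.12, adjusted p = 0.0387). Its other probe set read 372.8 and 355.1 against 206.2 and 198.6 (-0.78, adjusted p = 0.0104) and passed in all 12 alternatives. The first did not pass in 6 of 12 (adjusted p up to 0.186), among them those without wild-type replicate 2 (0.186), without NFATc1-deficient replicate 1 (0.0991) and without NFATc1-deficient replicate 2 (0.106). Itgax (0.07), Itgb7 (-0.30) and Itga3 (-0.07) did not pass.

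Of 12 tested ligands and extracellular partners of integrins, 4 fell and 2 rose, where 11.9% and 12.8% of all genes did (median change -0.14). Edil3, a secreted protein that binds alpha V integrins, read 1314.2 and 1089.4 in wild-type and 29.5 and 128.6 in deficient cultures, a change of -3.77 (SE 0.40, adjusted p = 0.000559). Mfge8, another alpha V ligand, read 836 and 688.2 against 362.7 and 446.7 (-0.88, adjusted p = 0.00542). These are the listed ligands with the deepest falls. Tgfb1 (-0.50), whose latent form alpha V integrins can activate, and the CD47 receptor Sirpa (-0.56) also fell, but neither passed without NFATc1-deficient replicate 1, which left 2 lower ligands. The junctional adhesion molecule F11r read 165 and 163.4 against 498.3 and 500.7 and rose (1.48, SE 0.16, adjusted p = 0.000574). Thrombospondin 1 (Thbs1) rose by 1.09 (adjusted p = 0.00582), while another probe set did not pass (0.49, adjusted p = 0.148). Fibronectin (Fn1, 0.40) and Vcam1 (-0.22) did not pass.

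**Figure D4:**
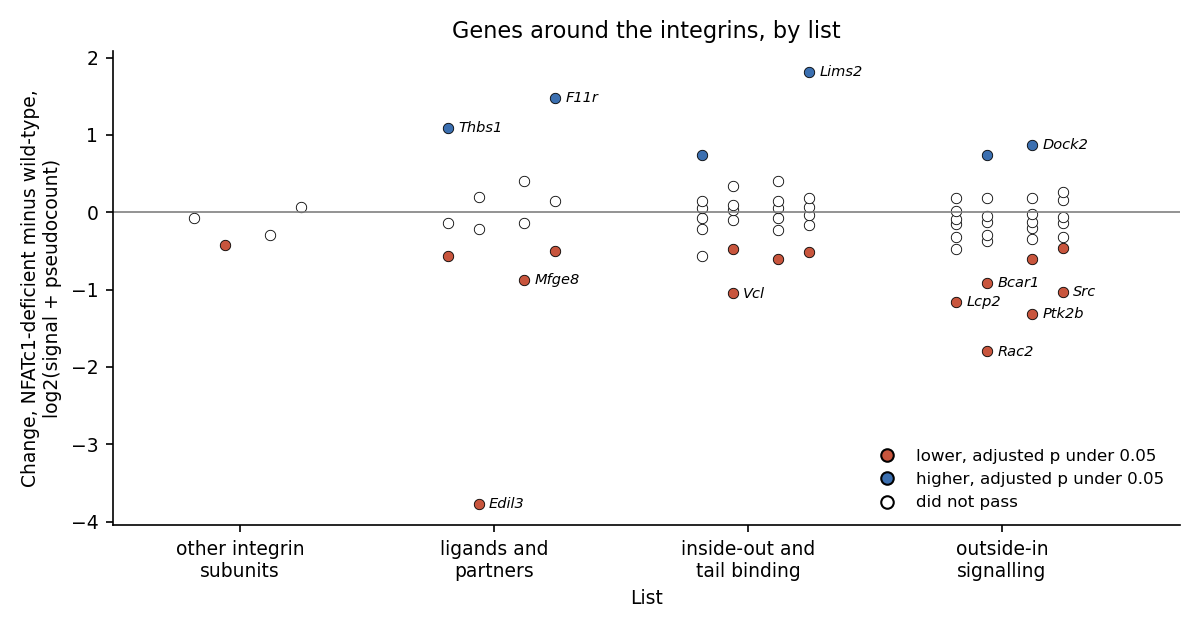
Change of each tested gene of 4 lists around the integrins (points, brightest probe set), NFATc1-deficient minus wild-type on the log2(signal + 23.3) scale, with red for lower and blue for higher at an adjusted p under 0.05. Most points lie near 0, with Edil3 (-3.77) and Rac2 (-1.80) lowest and Lims2 (1.81) highest.

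Of 24 tested genes that switch integrins on from inside the cell or bind their tails, 4 fell and 2 rose, where 11.9% and 12.8% of all genes did (median change 0.00). Both shares are near those over all genes. Without NFATc1-deficient replicate 1 the counts were 2 and 1, and without wild-type replicate 2 1 rose. Talin 1 (Tln1), which binds beta tails and activates them, read 1902.9 and 1880.1 in wild-type and 1523.7 and 1871.8 in deficient cultures (-0.16, adjusted p = 0.391). Kindlin 3 (Fermt3) had a change of 0.03 (adjusted p = 0.868). Both were named after their values were seen. Vinculin (Vcl), which links talin to actin, read 2056.6 and 2331.6 against 1015.1 and 1075.5 and fell (-1.05, SE 0.11, adjusted p = 0.000574).

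The PINCH adaptors, which join integrin-linked kinase in focal adhesions, went opposite ways. Lims1 read 2311.7 and 2161.6 against 1474.7 and 1464.3 (-0.60, adjusted p = 0.00445), and Lims2 read 131.4 and 97.2 against 442.3 and 471.8 (1.81, adjusted p = 0.000559). The endocytic adaptor Dab2 rose by 0.74 (adjusted p = 0.0382), but its other probe sets did not pass (0.39 and 0.73). It also did not pass without wild-type replicate 2 (adjusted p = 0.119) or NFATc1-deficient replicate 1 (0.168), over a range of 0.000303 to 0.168. Apbb1ip (-0.56, adjusted p = 0.096) and Parvg (0.40, adjusted p = 0.231) did not pass.

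Of 30 tested genes that carry signals from bound integrins, 7 fell and 2 rose, where 11.9% and 12.8% of all genes did (median change -0.15). The GTPase Rac2 read 4772.6 and 5792.9 in wild-type and 1381.8 and 1613.3 in deficient cultures, the deepest fall of the list (-1.80, SE 0.13, adjusted p = 0.000122). The kinase Ptk2b (Pyk2), which docks at podosomes downstream of beta 3, read 494 and 370.9 against 149.2 and 170.2 (-1.31, adjusted p = 0.00223). The adaptor Lcp2 (SLP-76) changed by -1.16 (adjusted p = 0.00115) and the kinase Src by -1.03 (adjusted p = 0.00853), with -1.65 at its other probe set. Syk (-0.46), gelsolin (Gsn, -0.61) and Bcar1 (-0.91) fell as well, although another Bcar1 probe set (-0.05), the dimmest of 5 Gsn probe sets (-0.39, adjusted p = 0.286) and the other Syk probe sets (-0.17 and -0.25) did not pass. The exchange factors Dock2 (0.87) and Dock1 (0.74) rose. Vav3 (-0.47, adjusted p = 0.1) and Pik3ca (-0.37, adjusted p = 0.131) did not pass at their brightest probe sets. Another probe set of each passed as lower, with -0.69 for Vav3 (adjusted p = 0.0289) and -0.60 for Pik3ca (0.0237). A further Vav3 probe set did not pass (-0.50, adjusted p = 0.0795). Without NFATc1-deficient replicate 1 the count of lower genes in this list was 4, Syk, Gsn and Bcar1 being those that no longer passed. Dock1 did not pass without wild-type replicate 2 or without either deficient array, which left 1 gene that rose.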

How the data were processed

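Osteoclast RNA was measured on 4 arrays. The deposited values are linear intensities, 1 per probe set, for which the submitters' processing notes name MAS5. MAS5 scales each array by 1 factor; array means trimmed by 2% at each end ran from 500.186 to 500.211, and medians from 111.6 to 130. Detection calls were not used here, so whether a dim signal is above background is unknown, and the number of arrays limits precision. Of 22690 probe sets, 20393 had 1 symbol in the platform annotation, 691 several and 1606 none; only the first were named.

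Signals were taken as log2(signal + 23.3), which understates changes of dim genes. After 64 control probe sets were left out, those with a mean above the 40th percentile (a signal of about 59.3) were kept. limma 3.58.1 (R 4.3.3) tested the genotypes with lmFit and eBayes with an intensity trend, with Benjamini-Hochberg adjustment. A gene was represented by its brightest tested probe set.

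Genes named were Nfatc1, every integrin probe set, other integrins that passed, up to 4 passing and 2 non-passing genes with the largest changes of each other list, and the 5 nearest profiles to Itgb3. Other names were chosen after their values were seen. Members and lists were chosen with earlier results of these data known. The scripts were tested on simulated data, with far fewer changed probe sets than were called here. The simulated spread depended on the mean signal alone, so the recovery there need not hold for these arrays. There the fit recovered 13 of 50 planted 1.5-fold changes, 38 of 50 2-fold changes and 50 of 50 4-fold changes. Changes of about 1.5-fold were thus mostly missed in the simulation. The 13 alternatives changed the scaling, pseudocount, filter, variance trend, replicate block, probe set rule or left out 1 array.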

Additional observations from a re-analysis of the deposited data

How the results depend on the processing

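Itgb3 passed as lower in every alternative in which it was tested, and the filter at the 60th percentile left it out. The count of lower subunits was 1 rather than 3 with median scaling, without a filter and without the variance trend, and ran from 1 to 3 when single arrays were left out, the lowest without NFATc1-deficient replicate 1. The count of higher subunits was 1 rather than 0 with median scaling, the subunit being Itga2b. Its change ran from 0.39 to 0.94 when single arrays were left out. With median scaling the changes hardly moved (-0.37 for Itgav 1452784_at, -0.44 for Itgb1 1452545_a_at and 0.68 for Itga2b). The adjusted p of Itgb3 was then 3.75e-56, from 4 arrays. The calls thus differed with median scaling while the changes were nearly the same, and the source of this was not tested.

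The size of the Itgb3 fall relative to other beta chains depends on the pseudocount. Relative to Itgb1 it was -5.66 with a pseudocount of 1, -2.16 with 100 and -3.99 with the mean of all tested probe sets per gene. Relative to Itgb2 it was -5.95 and -2.43, and relative to Itgb5 -6.21 and -2.66, for pseudocounts of 1 and 100. With the mean of all tested probe sets, Itgav changed by -0.76 relative to the other alpha chains, and Itgb1 did not pass (-0.24, adjusted p = 0.28).

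Sign changes occurred only among integrin probe sets that did not pass, when single arrays were left out. The changes then ran from -0.20 to 0.03 (1426918_at) and from -0.59 to 0.22 (1427771_x_at) for Itgb1. For Itgb5 they ran from -0.27 to 0.02 (1417533_a_at), -0.85 to 0.13 (1417534_at) and -0.24 to 0.41 (1456133_x_at). For Itga5 they ran from -0.05 to 0.18 (1423267_s_at) and -0.27 to 0.12 (1423268_at). The mean of the Itga5 probe sets changed by -0.01. The cause of these shifts was not tested.

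Over the alternatives the count of lower genes ran from 2 to 4 for ligands, 2 to 4 for inside-out genes, 4 to 9 for outside-in genes and 0 to 1 for other integrins; that of higher genes ran from 1 to 2, 1 to 3, 1 to 2 and 0 to 0. Higher granulocyte markers ran from 0 to 9. Over all probe sets 1543 were lower and 1739 higher, against 1140 and 1157 without a filter, 1066 and 1015 without the variance trend, and 932 and 849 without NFATc1-deficient replicate 1.

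The replicate numbers are shared between genotypes, but no label says that they pair the cultures. By Xist and Eif2s3y they mark the sex of the pools in both genotypes. The main fit did not model this, and leaving out 1 array also unbalances the sexes between genotypes. The replicate 1 minus replicate 2 differences correlated between genotypes at 0.132 across probe sets. With replicate number as a block, 3 subunits were lower and 0 higher, and of the integrin probe sets the call changed for Itgav 1432296_a_at alone (adjusted p = 0.0233).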

Other observations

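Among integrin genes below the filter, Itgae, the alpha E chain that pairs with beta 7, read 51.5 and 34.9 on the wild-type arrays and 12.2 and 8.5 on the deficient arrays. It was singled out after its values were seen and was not tested. The 7 untested subunit genes, among them Itga2, Itga7, Itga8, Itga9, Itgb4 and Itgb6, had no signal above 55.8.

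Markers of other marrow cells were also summed. The 7 measured T cell genes, with 0 tested, summed to 177.6 and 128.9 in wild-type and 104.9 and 109.2 in deficient cultures. The 7 B cell genes summed to 445.6 and 298.2 against 425.3 and 394.8, and the 6 dendritic cell genes to 613.7 and 382.1 against 464.3 and 445.2. The 8 progenitor and mast cell genes summed to 775.3 and 544.3 against 1076 and 762. Of these, 0 of 3 tested genes passed the threshold, where 11.9% of all genes fell and 12.8% rose. With 3 genes this count is near those shares. Among the brighter of these markers, Cd34 read 304 and 200.1 in wild-type and 508.2 and 305.4 in deficient cultures (0.63, adjusted p = 0.122), Ighm up to 319.3 and Bst2 from 224.8 to 286.8. The erythroid list gave 185.2 and 164.7 against 158.3 and 236.6, and the stromal and endothelial list 653.5 and 379.2 against 485.1 and 502.8.

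The replicate numbers differed in the sex of the mice by Xist and the Y-linked gene Eif2s3y. Xist read 3595.4 and 2690 in the replicate 1 pools and 106.1 and 111.4 in the replicate 2 pools, for wild-type and deficient cultures in that order, while Eif2s3y read 14.4 and 6.5 against 1146.7 and 1049.7.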
